A study of Mus musculus with 10 samples.

Results

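CDC2-like kinases, encoded in the mouse by Clk1, Clk2, Clk3 and Clk4, and the nuclear protein encoded by Son are described here in the myocardium of mice labelled as lacking or keeping natriuretic peptide receptor A (NPRA). All listed transcripts of these 5 genes were taken from the deposited transcript table after its identifiers had been matched to gene symbols of GENCODE vM21, which gave 14 of 22157 listed transcripts and 5 of 11781 genes. The genes were chosen with their values in these 10 libraries known, because Clk3 had one of the smallest unadjusted p-values of the genotype contrast. Differences between the genotypes in these 5 genes are therefore given as descriptions, and no test of them is used as support.

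The study compared polyadenylated RNA from the heart muscle of C57BL/6 mice in which NPRA had been deleted specifically in the myocardium with that of matched littermates. NPRA, encoded by Npr1, is the membrane guanylyl cyclase that binds atrial and B-type natriuretic peptide. There were 5 libraries labelled NPRA-/- (mouse numbers 217, 227, 231, 240 and 241) and 5 labelled NPRA+/+ (228, 230, 242, 243 and 255), and every list of 5 values below keeps these orders. Both groups share the strain and the tissue, and neither received a treatment according to the labels. The sources used here do not name the Cre driver, the age and sex of the mice or the deleted part of Npr1.

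CLK kinases are nuclear kinases with a LAMMER motif that phosphorylate both serine/threonine and tyrosine residues. Their best known substrates are the serine/arginine-rich (SR) proteins, which bind exons and recruit the spliceosome; phosphorylation by CLKs releases SR proteins from nuclear speckles. CLK pre-mRNAs are themselves known to be spliced into forms that skip an exon or keep introns. Son is a very large protein of nuclear speckles with an RS domain, a splicing cofactor needed for the efficient removal of weak introns, and its own pre-mRNA is known to end early in some isoforms.

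Values are FPKM, fragments scaled to the length of the transcript and to the library, which allow levels of different genes to be set side by side. They summed to 430059 to 453122 per library; the sequencing depth is unknown. The level of Npr1 itself, 4.64 ± 0.492 FPKM in the NPRA-/- group and 4.68 ± 0.301 FPKM in the NPRA+/+ group (mean ± SD, n = 5 each), overlapped between the groups and so does not check the labels, which name the groups throughout. All 6 cardiomyocyte markers were listed, and their summed level was 21961 to 26093 FPKM in NPRA-/- libraries and 21847 to 24822 FPKM in NPRA+/+ libraries. The summed level of the 5 macrophage markers, all listed, was 64.5 to 74.8 FPKM in NPRA-/- libraries and 75.7 to 91.3 FPKM in NPRA+/+ libraries, with no overlap. The other marker sums overlapped: fibroblast (6 of 6 listed) 315 to 374 against 336 to 438 FPKM, endothelial (5 of 5) 191 to 243 against 228 to 248 FPKM, and smooth muscle and pericyte (5 of 5) 307 to 390 against 305 to 527 FPKM. Atrial markers (4 of 5 listed) summed to 298 to 652 against 237 to 860 FPKM, with Myl7 and Sln each listed at 0 in 2 libraries. Erythroid markers (5 of 5) summed to 946 to 1438 against 768 to 1392 FPKM, and adipocyte markers (3 of 5) to 0.213 to 2.26 against 0.410 to 11.7 FPKM, with Ucp1 listed at 0 in 8 libraries and Cidec in 1. No marker passed the limma test, and the part of cell composition in the results below was not tested. In RNA from whole tissue, fewer cells of a type and less RNA per cell cannot be told apart.

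By group mean, Son and Clk4 were the most abundant of the 5 genes. Clk1 came next with a wide spread between libraries, and Clk2 and Clk3 were the lowest. In libraries labelled NPRA-/- the mean sums of listed transcripts were 26.6 ± 2.35 FPKM for Clk4, 22.1 ± 9.91 FPKM for Son, 19.3 ± 8.93 FPKM for Clk1, 9.16 ± 1.83 FPKM for Clk3 and 6.15 ± 1.16 FPKM for Clk2. In libraries labelled NPRA+/+ they were 37.5 ± 3.20 FPKM for Son, 29.0 ± 4.03 FPKM for Clk4, 28.1 ± 14.2 FPKM for Clk1, 7.11 ± 1.01 FPKM for Clk2 and 4.19 ± 1.41 FPKM for Clk3 (SD, n = 5 each). The order of the lowest pair differed between the groups, since Clk3 exceeded Clk2 in 5 of 5 NPRA-/- libraries and in 1 of 5 NPRA+/+ libraries, library 243. Son exceeded Clk4 in 1 of 5 NPRA-/- libraries, library 227, and in 5 of 5 NPRA+/+ libraries. It exceeded Clk1 in 3 of 5 NPRA-/- libraries and in 4 of 5 NPRA+/+ libraries. Clk1 and Clk4 kept no fixed order, with Clk1 higher in 1 of 5 NPRA-/- libraries and in 2 of 5 NPRA+/+ libraries, and their ranges overlapped in both groups.

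**Figure D1:**
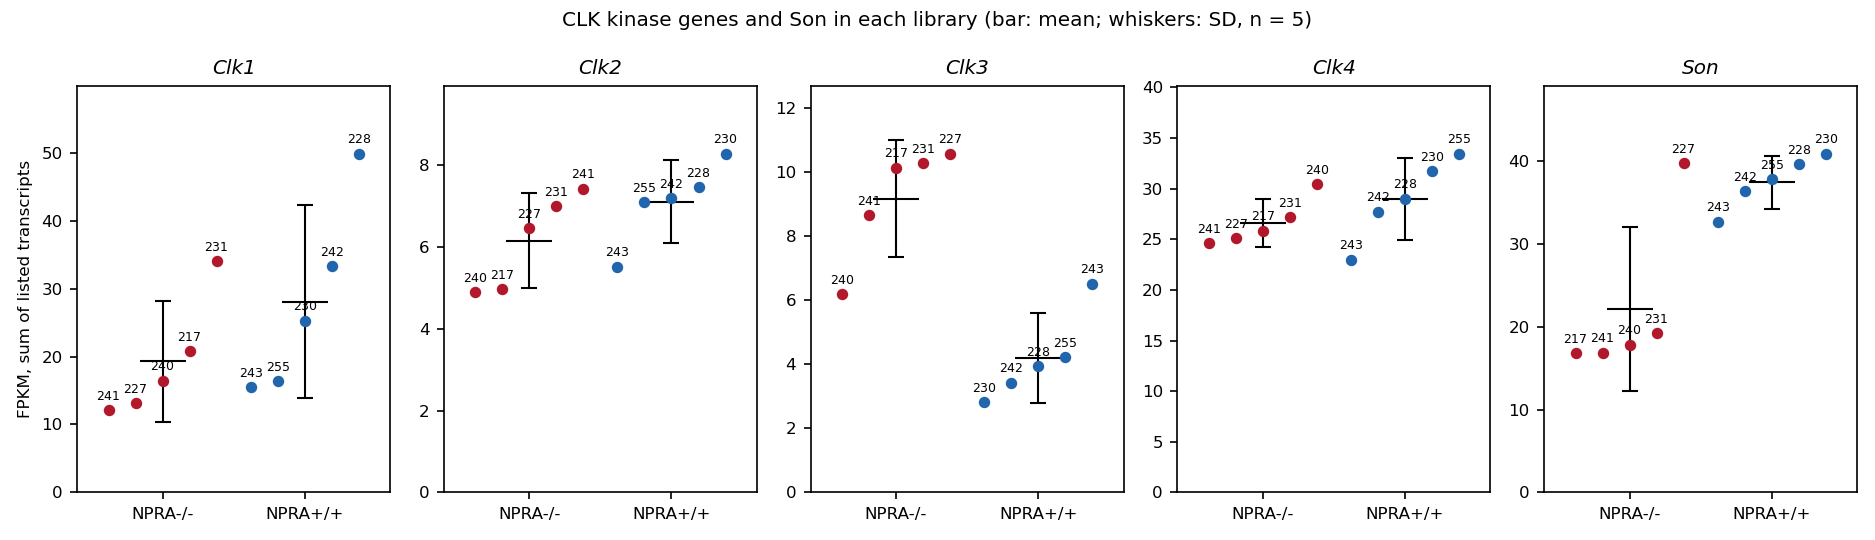
Sum of listed transcripts in FPKM (vertical axes, linear, starting at 0) for Clk1, Clk2, Clk3, Clk4 and Son in each library; points are libraries with their mouse number, bars are means and whiskers are SD over 5 libraries, NPRA-/- on the left and NPRA+/+ on the right of each panel. Clk3 is higher in NPRA-/- libraries with an overlap of library 240 (6.18 FPKM) and library 243 (6.52 FPKM), and Son is lower in 4 of 5 NPRA-/- libraries, with library 227 at 39.7 FPKM.

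None of the 5 genes passed the limma test at a Benjamini-Hochberg adjusted p of 0.05, which 1 of 10768 tested genes passed (0.00929%). At an unadjusted limma p under 0.05 there were 2 of the 5, Clk3 and Son, against 5.53% of all tested genes. No member gene had groups that did not overlap, against 1.08% of tested genes. Among the 13 of 14 listed transcripts that entered the test, 0 passed the adjusted limma threshold, against 0.0283% of all 17641 tested transcripts. At the unadjusted level there were 4, namely Clk3-201, Son-201, Son-202 and Son-204, against 5.5%, and Clk3-201 alone had groups that did not overlap, against 1.02%. Since the genes were chosen on this contrast, nothing is read from these counts. Clk3 was higher in NPRA-/- libraries and the other 4 genes had lower means, beside a median log2 difference of -0.029 over all tested genes and of -0.026 over all tested transcripts.

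Clk3 (ENSMUSG00000032316.8, chromosome 9, 57750624 to 57765860, minus strand, GRCm38/mm10) encodes the CLK kinase that is known for its high level in testis and sperm. Its summed level was 10.1, 10.6, 10.3, 6.18 and 8.65 FPKM in the NPRA-/- libraries and 3.95, 2.82, 3.42, 6.52 and 4.22 FPKM in the NPRA+/+ libraries. Of the NPRA-/- libraries 4 stood above all NPRA+/+ libraries, and library 240 was just below library 243. The ratio of the group means was 2.19, and the difference on the log2(FPKM + 1) scale was 0.99 (SE 0.19). Without library 243 the log2 difference was 1.13 and the limma adjusted p was 0.0986, the lowest of its 22 alternatives. Over the other alternatives the limma adjusted p lay between 0.405 and 0.955. The fit without library 243 leaves out the only NPRA+/+ library above any NPRA-/- library, so its p does not test the genotype. Clk3 made up 15.1% ± 3.30 of the summed FPKM of the 4 CLK genes in NPRA-/- libraries and 6.62% ± 3.68 in NPRA+/+ libraries (SD, n = 5 each).

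Of 9 annotated Clk3 transcripts 2 are listed, both annotated as protein-coding, and their annotations differ at both ends. Exon 1 has 787 bases in Clk3-201 and 41 in Clk3-205, and its last base is the same in both. Clk3-201 has 13 exons and 1914 coding bases. Clk3-205 is annotated without a start codon, so its annotation may be incomplete at the 5′ end. It has 12 exons and keeps the last intron, within which its reading frame stops. The sequences where the 2 transcripts part at the 3′ end are shown 5′ to 3′ on the minus strand, from the GENCODE vM21 transcripts. In both, the lower case letters are the end of exon 12. Capitals mark the first bases of exon 13 in Clk3-201 (chr9:57751092-57751121) and the intronic bases up to and including the stop codon in Clk3-205 (chr9:57751638-57751736).
Clk3-201 exons 12 and 13: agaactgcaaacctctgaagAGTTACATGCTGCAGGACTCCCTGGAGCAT
Clk3-205 exon 12 and retained intron: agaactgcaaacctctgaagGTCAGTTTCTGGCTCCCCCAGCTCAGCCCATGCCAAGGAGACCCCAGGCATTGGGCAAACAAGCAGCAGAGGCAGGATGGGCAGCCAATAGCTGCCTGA

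The spliced form carried the separation of the groups. Clk3-201 was at 5.64, 8.26, 6.72, 5.65 and 8.02 FPKM in NPRA-/- libraries and at 2.25, 1.55, 2.61, 5.03 and 3.14 FPKM in NPRA+/+ libraries. These ranges did not overlap; the closest values were 5.64 FPKM in library 217 and 5.03 FPKM in library 243, and the log2 difference was 1.05 (SE 0.22). Clk3-205 was at 4.49, 2.32, 3.55, 0.528 and 0.631 FPKM in NPRA-/- libraries and at 1.70, 1.27, 0.814, 1.49 and 1.08 FPKM in NPRA+/+ libraries. The NPRA-/- libraries lay on both sides of the NPRA+/+ range, 3 above it and 2 below it. As a share of the gene sum, Clk3-205 was 44.3, 21.9, 34.6, 8.55 and 7.30% in NPRA-/- libraries and 42.9, 45.0, 23.8, 22.9 and 25.6% in NPRA+/+ libraries, and both groups held high and low shares. Library 240, with the lowest Clk3 sum of its group (6.18 FPKM), was low in both forms, at 0.528 FPKM of Clk3-205 and 5.65 FPKM of Clk3-201. Library 217 had a like Clk3-201 level but more Clk3-205. Library 241 had a like Clk3-205 level but more Clk3-201 (8.02 FPKM), and its sum was 8.65 FPKM.

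The 3′ end of Clk3 lies over that of Edc3, a gene on the opposite strand that encodes an enhancer of mRNA decapping. The listed Edc3 transcript shares 584 of 2496 exon bases with Clk3-201 (23.4%) and 1197 of 2363 with Clk3-205 (50.7%). The libraries were stranded, but the sources used here do not say whether strand was used in the quantification, so Clk3 values, and most of all those of Clk3-205, are uncertain to that extent. Edc3 itself was listed at 0.906 ± 0.273 FPKM in NPRA-/- libraries and at 0.986 ± 0.253 FPKM in NPRA+/+ libraries (SD, n = 5 each), below the Clk3 sum in all 10 libraries. Beside Clk3-205 alone Edc3 was higher in 3 libraries: 240 (1.33 FPKM beside 0.528 FPKM), 241 (0.770 beside 0.631 FPKM) and 242 (0.978 beside 0.814 FPKM).

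Clk1 (ENSMUSG00000026034.17, chromosome 1, 58410189 to 58424066, minus strand) encodes the first CLK kinase to be described. It had 1 listed transcript, Clk1-201, with 1449 coding bases, of 13 annotated ones; 7 of the 13 are annotated as retained introns and 2 as targets of nonsense-mediated decay, and these forms were not analysed here. Clk1 was at 20.8, 13.1, 34.1, 16.4 and 12.1 FPKM in NPRA-/- libraries and at 49.8, 25.3, 33.3, 15.5 and 16.4 FPKM in NPRA+/+ libraries. Library 231 was the highest of its group and library 228 of the other, and the ranges overlapped over most of their width. The log2 difference was -0.48 (SE 0.34), -0.71 without library 231 and -0.25 without library 228.

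Clk4 (ENSMUSG00000020385.16, chromosome 11, 51261730 to 51281766, plus strand), the closest relative of Clk1, was the steadiest of the CLK genes. Its sum was 25.9, 25.1, 27.2, 30.5 and 24.6 FPKM in NPRA-/- libraries and 29.0, 31.7, 27.7, 23.0 and 33.4 FPKM in NPRA+/+ libraries. The lowest and the highest value were both in NPRA+/+ libraries, 243 and 255. The log2 difference was -0.11 (SE 0.098), -0.19 without library 243 and -0.058 without library 255.

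Of 14 annotated Clk4 transcripts 3 are listed, with 2 lengths of coding sequence. Clk4-201 has 13 exons and 1443 coding bases. Clk4-202 starts within the gene and Clk4-203 skips exons 2 and 4, and each has 903 coding bases. CLK transcripts are known to skip exon 4. In Clk4-201 this exon (chr11:51273078-51273168, plus strand) is printed in capitals between the last 20 bases of exon 3 and the first 20 bases of exon 5.
Clk4-201 exon 4: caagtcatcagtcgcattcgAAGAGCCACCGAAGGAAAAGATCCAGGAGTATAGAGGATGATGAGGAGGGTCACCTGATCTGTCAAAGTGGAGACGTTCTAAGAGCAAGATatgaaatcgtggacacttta

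The full-length Clk4-201 was at 8.07, 8.53, 11.2, 13.9 and 7.62 FPKM in NPRA-/- libraries and at 10.8, 10.5, 11.8, 10.7 and 14.4 FPKM in NPRA+/+ libraries. The lowest 3 of the 10 values were in NPRA-/- libraries (217, 227 and 241), while library 240 came close to the highest, and the log2 difference was -0.24 (SE 0.16), or -0.36 without library 240. Clk4-202 was the most abundant form in 8 of 10 libraries, at 12.2 to 16.5 FPKM in NPRA-/- libraries and 10.6 to 19.7 FPKM in NPRA+/+ libraries, and the NPRA-/- range lay inside the other. The exon-skipping Clk4-203 varied most, at 2.88, 0.10, 3.75, 2.42 and 4.53 FPKM in NPRA-/- libraries and 0.383, 1.55, 4.21, 1.72 and 1.54 FPKM in NPRA+/+ libraries. The 2 forms with 903 coding bases together made up 63.4% ± 6.53 of Clk4 in NPRA-/- libraries and 59.6% ± 5.27 in NPRA+/+ libraries (SD, n = 5 each), a difference smaller than either SD.

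Clk2 (ENSMUSG00000068917.12, chromosome 3, 89164795 to 89176921, plus strand), a CLK kinase known in liver for its part in insulin signalling, had a sum of 4.98, 6.46, 6.996, 4.90 and 7.42 FPKM in NPRA-/- libraries. In NPRA+/+ libraries it was 7.47, 8.28, 7.19, 5.52 and 7.09 FPKM. Libraries 217 and 240 were below all NPRA+/+ libraries and the other 3 were within their range, and the log2 difference was -0.19 (SE 0.13). It was -0.12 without library 240 and 0.0060 when the most abundant transcript stood for the gene, which turns its direction.

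The 3 listed Clk2 transcripts, of 11 annotated, each have 13 exons and differ in the coding sequence by the acceptors of exons 3 and 4, where splice sites 3 bases apart are used. Clk2-203 has both exons in the long form (1500 coding bases), Clk2-202 has exon 3 long and exon 4 short (1497), and Clk2-201 has both short (1494). The junctions are shown with the last 20 bases of the exon before and the first 20 shared bases after. The 3 extra bases are in capitals (chr3:89168695-89168697 and chr3:89169615-89169617, plus strand).
Clk2 exon 3, long: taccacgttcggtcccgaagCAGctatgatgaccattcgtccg
Clk2 exon 3, short: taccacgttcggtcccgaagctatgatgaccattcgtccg
Clk2 exon 4, long: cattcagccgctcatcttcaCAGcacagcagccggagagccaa
Clk2 exon 4, short: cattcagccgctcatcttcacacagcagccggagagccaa

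Clk2-203, with both exons long, was the major form, at 3.63, 4.73, 4.32, 3.28 and 4.49 FPKM in NPRA-/- libraries and 3.70, 4.55, 3.95, 4.34 and 3.72 FPKM in NPRA+/+ libraries. Clk2-201 was at 1.19 to 1.77 FPKM in NPRA-/- libraries and 1.17 to 2.55 FPKM in NPRA+/+ libraries. Clk2-202 was at 0.148, 0.0302, 0.924, 0.153 and 1.16 FPKM in NPRA-/- libraries and 1.26, 1.18, 1.21, 0.00556 and 1.25 FPKM in NPRA+/+ libraries. It was near 0 in 3 NPRA-/- libraries (217, 227 and 240) and in 1 NPRA+/+ library (243), and at about 1 FPKM in the other 6. Its group means were below the floor of 1 FPKM, so it was not among the 13 transcripts tested. Without library 243 it passed the floor, with a log2 difference of -0.65. Clk2-203 accounted for 67.1% ± 6.05 of Clk2 in NPRA-/- libraries and 58.1% ± 11.7 in NPRA+/+ libraries (SD, n = 5 each), with overlap.

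**Figure D2:**
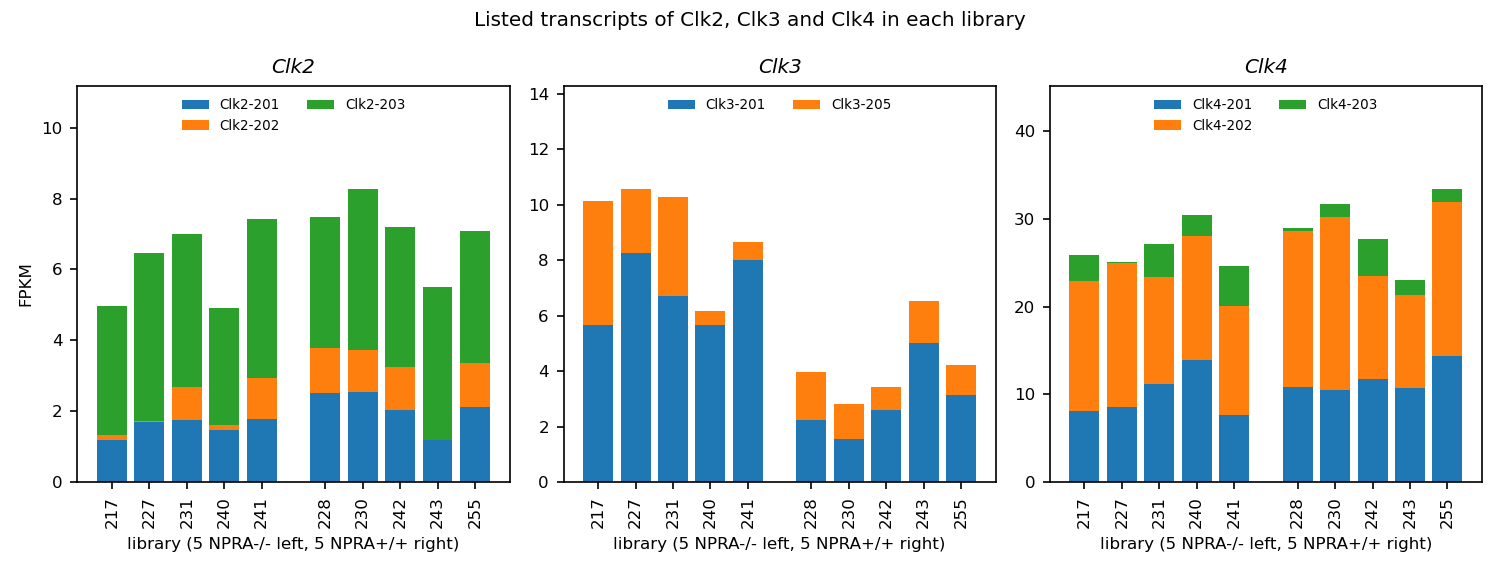
FPKM (vertical axes, linear, starting at 0) of the listed transcripts of Clk2, Clk3 and Clk4, stacked for each library, with the 5 NPRA-/- libraries on the left and the 5 NPRA+/+ libraries on the right. Clk3-201 is at 5.64 to 8.26 FPKM in the NPRA-/- libraries and 1.55 to 5.03 FPKM in the NPRA+/+ libraries, while the makeup of Clk2 and Clk4 varies within both groups.

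The summed level of the 4 CLK genes was 61.2 ± 10.2 FPKM in NPRA-/- libraries and 68.3 ± 14.7 FPKM in NPRA+/+ libraries (SD, n = 5 each). Clk4 and Clk1 together supplied most of this sum in every library, Clk4 with 44.2% ± 6.61 and Clk1 with 30.4% ± 8.43 in NPRA-/- libraries, against 43.5% ± 8.54 and 39.3% ± 11.6 in NPRA+/+ libraries. The share of Clk2 was 10.2% ± 2.57 in NPRA-/- libraries and 10.6% ± 1.52 in NPRA+/+ libraries.

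Son (ENSMUSG00000022961.18, chromosome 16, 91647506 to 91679221, plus strand, GRCm38/mm10) was at 16.8, 39.7, 19.3, 17.9 and 16.9 FPKM in NPRA-/- libraries and at 39.7, 40.9, 36.4, 32.7 and 37.8 FPKM in NPRA+/+ libraries. The 4 NPRA-/- libraries other than 227 lay between 16.8 and 19.3 FPKM, below all NPRA+/+ libraries, and library 227 lay within the NPRA+/+ range. The ratio of the group means was 0.590, and the log2 difference was -0.81 (SE 0.20). Without library 227 the log2 difference was -1.04 and the limma adjusted p was 0.00106; over the other 21 alternatives it lay between 0.767 and 0.981. That fit leaves out the 1 library of its group that stood at the values of the other, so its p does not test the genotype. Library 227 also had the lowest summed FPKM of its group (430059) and the lowest mitochondrial share (26.1%). Its fibroblast (374 FPKM) and smooth muscle and pericyte (390 FPKM) marker sums were the highest of the group. So was its macrophage marker sum (74.8 FPKM, beside 73.8 FPKM in library 217), while its erythroid marker sum (946 FPKM) was the lowest. The part of these in its Son value was not tested.

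Of 14 annotated Son transcripts 5 are listed, all protein-coding, and they differ mainly in where they end. Son-203 (12 exons, 7431 coding bases) and Son-202 (12 exons, 7332 coding bases) run to the last exon of the gene. Son-201 ends in its own exon 5 downstream of exon 4 (6378 coding bases), and Son-204 ends in its own exon 7 downstream of exon 6 (6963 coding bases). Son-205 reaches the last exon but skips exon 3, which has 5970 bases and holds most of the coding sequence, and keeps 1362 coding bases. The junctions that tell these forms apart are printed from the GENCODE vM21 transcripts, plus strand, 5′ to 3′. Lower case letters are the last 20 bases of the upstream exon, and capitals are the first coding bases of the exon that follows. In Son-201 these are 6 bases that end in the stop codon. The capitals lie, line by line, at chr16:91664198-91664227, chr16:91662492-91662497, chr16:91670464-91670493, chr16:91664920-91664949, chr16:91678154-91678183, chr16:91678101-91678130 and chr16:91662101-91662130.
Son-203 exons 4 and 5: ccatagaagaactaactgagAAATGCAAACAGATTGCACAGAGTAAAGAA
Son-201 exons 4 and 5: ccatagaagaactaactgagTTTTAG
Son-203 exons 6 and 7: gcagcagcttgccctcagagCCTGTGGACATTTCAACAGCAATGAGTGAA
Son-204 exons 6 and 7: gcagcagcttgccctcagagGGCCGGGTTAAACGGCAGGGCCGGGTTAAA
Son-203 exons 11 and 12: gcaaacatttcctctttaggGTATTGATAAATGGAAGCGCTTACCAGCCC
Son-202 exons 11 and 12: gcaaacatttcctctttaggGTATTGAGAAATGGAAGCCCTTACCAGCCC
Son-205 exons 2 and 3: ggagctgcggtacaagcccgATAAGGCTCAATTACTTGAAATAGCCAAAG
The acceptors of exon 12 in Son-203 and Son-202 are 53 bases apart, and the first 30 bases after them are identical at 28 of 30 positions. Reads that end there therefore tell these 2 forms apart at few bases. The 2 forms also differ in exon 1, which has 479 bases in Son-203 and 106 in Son-202.

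**Figure D3:**
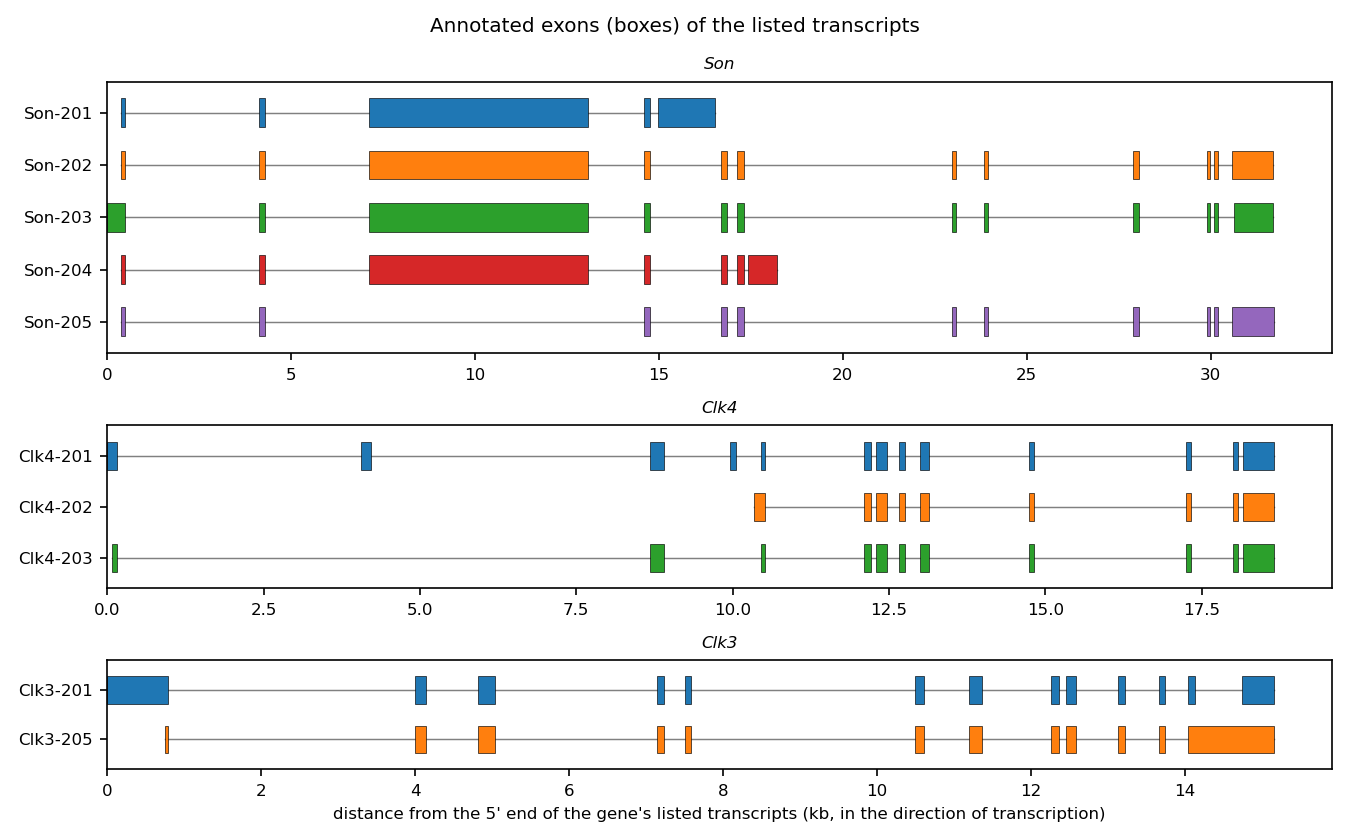
Annotated exons (boxes) and introns (lines) of the listed transcripts of Son, Clk4 and Clk3, drawn to scale for each gene against the distance in kb from the 5′ end of its listed transcripts in the direction of transcription. Son-201 and Son-204 end early, Son-205 skips the large exon 3 of 5970 bases, Clk4-202 starts within the gene, and Clk3-205 keeps the last intron.

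In FPKM, the lower Son values of 4 NPRA-/- libraries were mainly those of the 2 early-ending forms. Son-201 and Son-204 together were at 5.39, 27.7, 6.71, 5.21 and 9.74 FPKM in NPRA-/- libraries and at 28.1, 22.2, 25.8, 23.6 and 28.3 FPKM in NPRA+/+ libraries. Again 4 NPRA-/- libraries were below all others, and library 227 was among the NPRA+/+ values. Son-202 and Son-203 together were at 10.3, 10.9, 11.2, 11.6 and 7.13 FPKM in NPRA-/- libraries and at 10.2, 17.3, 8.93, 7.43 and 8.31 FPKM in NPRA+/+ libraries. These ranges overlapped, and the group means were 10.2 ± 1.80 FPKM in NPRA-/- libraries and 10.4 ± 3.99 FPKM in NPRA+/+ libraries (SD, n = 5 each). Within this sum, Son-202 was low in the same 4 NPRA-/- libraries and Son-203 was not.

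Son-204 differed most. It was at 1.61, 12.3, 2.36, 1.74 and 2.14 FPKM in NPRA-/- libraries and at 14.7, 12.03, 13.7, 10.99 and 13.4 FPKM in NPRA+/+ libraries. The 4 low libraries were at a small fraction of any NPRA+/+ library, and library 227 was again within the NPRA+/+ range. The log2 difference was -1.80 (SE 0.40), and without library 227 it was -2.24 with a limma adjusted p of 6.11e-05, against 0.644 to 0.943 over its other alternatives. As for the Son sum, the p without library 227 does not test the genotype. Son-201 was at 3.78, 15.4, 4.34, 3.47 and 7.59 FPKM in NPRA-/- libraries and at 13.4, 10.2, 12.1, 12.7 and 14.9 FPKM in NPRA+/+ libraries, a log2 difference of -0.97 (SE 0.33). Its value in library 227 was the highest of all 10 libraries.

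The 2 forms that end in exon 12 and keep exon 3, which reads at their acceptors tell apart at few bases, had log2 differences of opposite sign that did not pass the test over all 10 libraries. Son-202 was at 0.906, 5.50, 1.25, 0.947 and 1.15 FPKM in NPRA-/- libraries and at 5.04, 3.32, 4.50, 3.75 and 3.71 FPKM in NPRA+/+ libraries, with the same 4 libraries low. Its log2 difference was -0.96 (SE 0.32). Without library 227 it was -1.29, with a limma adjusted p of 0.0161 against 0.852 to 0.944 over the other alternatives, and here too that p does not test the genotype. Son-203 was at 9.39, 5.40, 10.002, 10.6 and 5.98 FPKM in NPRA-/- libraries and at 5.18, 14.0, 4.42, 3.68 and 4.59 FPKM in NPRA+/+ libraries. Here the 5 NPRA-/- libraries were above 4 of the NPRA+/+ libraries, and library 230 was above them all; the log2 difference was 0.43 (SE 0.32), and 0.73 without library 230.

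As shares of Son, Son-203 made up 55.9, 13.6, 51.9, 59.5 and 35.5% in NPRA-/- libraries and 13.1, 34.3, 12.2, 11.3 and 12.1% in NPRA+/+ libraries. Son-204 made up 9.62, 30.9, 12.3, 9.73 and 12.7% in NPRA-/- libraries and 37.0, 29.4, 37.7, 33.6 and 35.5% in NPRA+/+ libraries. Library 227 thus had the makeup of the NPRA+/+ libraries as well as their level, while library 230 had more Son-203 than the rest of its group at a like total. Library 241 was like 217, 231 and 240 in level but had more Son-201, 45.0% against 19.4 to 22.5%.

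Son-205, without the large exon, was at 1.10, 1.17, 1.31, 1.08 and 0.00884 FPKM in NPRA-/- libraries and at 1.37, 1.37, 1.64, 1.60 and 1.21 FPKM in NPRA+/+ libraries. It made up at most 6.80% of Son in any library and was near 0 in library 241. Of the other NPRA-/- values 3 were just below the NPRA+/+ range and 1, in library 231, was within it, and the log2 difference of -0.39 (SE 0.23) was -0.17 without library 241.

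**Figure D4:**
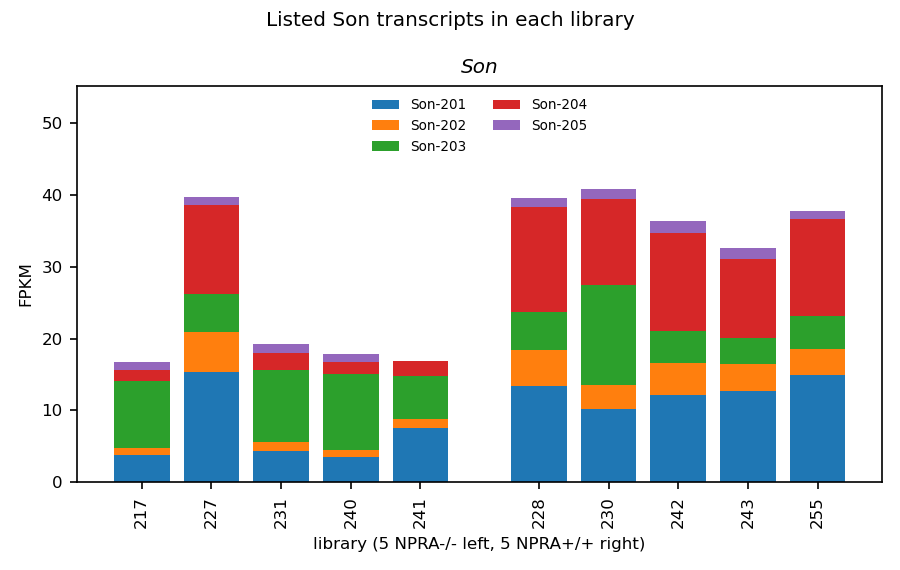
FPKM (vertical axis, linear, starting at 0) of the 5 listed Son transcripts, stacked for each library, with the 5 NPRA-/- libraries on the left and the 5 NPRA+/+ libraries on the right. Son-204 is at 1.61 to 2.36 FPKM in 4 NPRA-/- libraries and at 12.3 FPKM in library 227, against 10.99 to 14.7 FPKM in the NPRA+/+ libraries.

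The neighbours of Son did not share its pattern as far as they were listed. Gart, a purine synthesis gene whose start lies 554 bases from that of Son on the opposite strand, was at 17.3 ± 1.95 FPKM in NPRA-/- libraries and 17.5 ± 1.68 FPKM in NPRA+/+ libraries (SD, n = 5 each). The exons of Donson on the opposite strand overlap those of Son by 103 bases, and no transcript of Donson was listed. Scamp3, a membrane trafficking gene next to Clk2, was at 21.3 ± 0.781 FPKM in NPRA-/- libraries and 22.3 ± 1.84 FPKM in NPRA+/+ libraries.

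The substrates of the CLK kinases and the rest of the splicing machinery were described from 5 lists with 129 entries, and no member of any list passed the limma test over all genes. Of 13 SR proteins 12 were listed and tested, 6 with higher and 6 with lower means in NPRA-/- libraries, at a median log2 difference of -0.0017. At an unadjusted p under 0.05 there was 1 of them, Srsf4, beside 5.53% of all tested genes. This SR protein was at 26.5, 28.2, 28.1, 29.4 and 24.1 FPKM in NPRA-/- libraries and at 3.94, 4.66, 25.9, 3.64 and 4.79 FPKM in NPRA+/+ libraries. Library 242 stood at the NPRA-/- values, and the log2 difference of Srsf4 was 1.96 (SE 0.41). Srsf4 passed the adjusted limma test in 1 of the 18 alternatives counted for the lists. Other forms of the test and the most abundant transcript per gene were not among these. The 1 was the fit without library 242, where the log2 difference was 2.43. That fit leaves out the 1 library of its group at the values of the other, so it does not test the genotype. Srsf9 was at 8.45 ± 1.59 FPKM in NPRA-/- libraries and 9.61 ± 0.939 FPKM in NPRA+/+ libraries.

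The other kinases that act on SR proteins, or are related to those that do, had 14 of 17 members tested, 2 with higher and 12 with lower means, at a median of -0.047 and with 0 at an unadjusted limma p under 0.05. Hipk1, a homeodomain-interacting kinase of nuclear bodies, was at 10.9 ± 1.19 FPKM in NPRA-/- libraries and 12.7 ± 1.97 FPKM in NPRA+/+ libraries. Prpf4b, the kinase of the tri-snRNP, was at 11.7 ± 1.32 FPKM in NPRA-/- libraries and 9.75 ± 3.09 FPKM in NPRA+/+ libraries. All 30 speckle and RS-domain cofactors were tested, 13 with higher and 17 with lower means, at a median of -0.015, with 3 at an unadjusted p under 0.05 beside 5.53% of all tested genes. Among them was Srrm1, an RS-domain coactivator of splicing, at 37.3, 32.5, 30.8, 30.6 and 30.1 FPKM in NPRA-/- libraries and at 28.7, 24.0, 27.3, 26.0 and 27.9 FPKM in NPRA+/+ libraries. The groups did not overlap, as in 1.08% of all tested genes, but the difference was small (log2 0.26, SE 0.072), and its limma adjusted p over all genes was 0.833. Acin1, of a complex that joins the exon junction complex, was at 26.9 ± 1.94 FPKM in NPRA-/- libraries and 31.7 ± 3.82 FPKM in NPRA+/+ libraries.

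The core spliceosome had 41 of 41 members tested, 13 with higher and 28 with lower means, at a median of -0.038 and with 2 at an unadjusted p under 0.05. That share is close to the 5.53% of all tested genes, and nothing is read from it. The 2 were Sf3b4, of the U2 snRNP, at 5.05 ± 0.355 FPKM in NPRA-/- libraries and 6.01 ± 0.562 FPKM in NPRA+/+ libraries, and Prpf31, of the U4/U6 snRNP, at 4.72 ± 0.340 FPKM in NPRA-/- libraries and 5.53 ± 0.385 FPKM in NPRA+/+ libraries. The splicing regulators of heart muscle had 25 of 28 members tested, 14 with higher and 11 with lower means, at a median of 0.0016 and with 0 at an unadjusted limma p under 0.05. Rbm24, a muscle splicing factor, was at 50.7 ± 1.77 FPKM in NPRA-/- libraries and 45.6 ± 4.76 FPKM in NPRA+/+ libraries. Rbm20, which regulates splicing of titin, was at 39.9 ± 2.94 FPKM in NPRA-/- libraries and 32.0 ± 8.91 FPKM in NPRA+/+ libraries, where library 242 was the lowest at 16.6 FPKM.

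**Figure D5:**
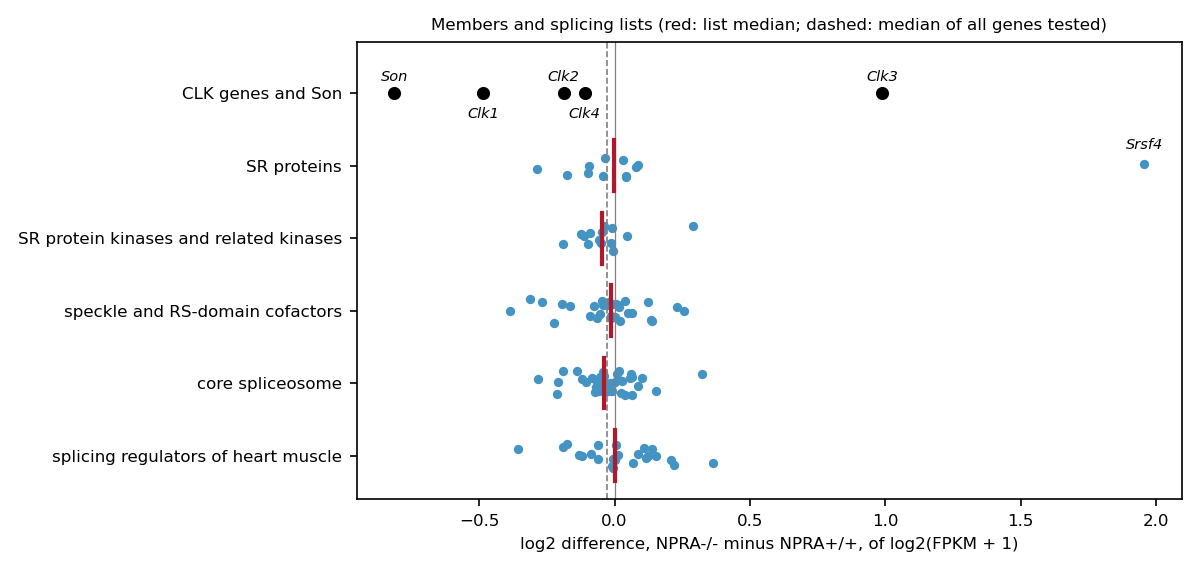
Log2 difference of log2(FPKM + 1), NPRA-/- minus NPRA+/+ (horizontal axis), of Clk1, Clk2, Clk3, Clk4 and Son (black) and of the tested members of 5 splicing lists (blue), 1 point per gene; red bars are list medians and the dashed line is the median of all tested genes. Clk3 (0.99) and Son (-0.81) lie away from 0, the list medians lie between -0.047 and 0.0016, and Srsf4 is at 1.96.

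For each gene up to 3 others with the most alike pattern over the 10 libraries were taken by Pearson correlation of log2(FPKM + 1) among all tested genes. These correlations are the highest of many, the libraries fall into groups for Son and Clk3, and they are given as a description only. Clk1 was most like Larp1b (r = 0.95), Pear1 (r = 0.87) and Dapk1 (r = 0.86). Clk2 was most like Map3k2 (r = 0.93), Pdik1l (r = 0.90) and St5 (r = 0.88), and Clk4 most like Slc4a1ap (r = 0.89) and Ppp1r10 (r = 0.88). Clk3 was most like Sft2d3 (r = 0.92), Bclaf3 (r = 0.90) and Idua (r = 0.88). Idua, the lysosomal iduronidase, was at 9.15, 5.26, 6.98, 1.61 and 2.40 FPKM in NPRA-/- libraries and at 1.30, 0.725, 1.72, 3.08 and 0.838 FPKM in NPRA+/+ libraries, which resembles the values of Clk3-205 in NPRA-/- libraries, high in 217, 227 and 231 and low in 240 and 241.

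Son was most like Litaf (r = 0.93), Itgb2 (r = 0.92) and Kat14 (r = 0.92), which were highest among NPRA-/- libraries in library 227. Kat14, a subunit of an acetyltransferase complex, was at 6.67, 8.09, 7.35, 6.46 and 5.96 FPKM in NPRA-/- libraries and at 8.92, 9.12, 8.34, 7.40 and 8.88 FPKM in NPRA+/+ libraries. Itgb2, the beta-2 integrin of leukocytes, was at 2.10 ± 0.303 FPKM in NPRA-/- libraries and 2.88 ± 0.289 FPKM in NPRA+/+ libraries (SD, n = 5 each). Spearman's rho was between 0.54 (Pdik1l with Clk2) and 0.94 (Map3k2 with Clk2), and rho of Litaf with Son was 0.60. Without the 2 libraries farthest from the median of the member gene, r was between 0.69 and 0.92 over the 14 pairs named. For Son this left out libraries 217 and 241, and for Clk3 libraries 230 and 242. High and low libraries of both genes remained, so for them these values of r are no check of the likeness.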

How the data were processed

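RNA from the myocardium of 10 mice was measured. Per the labels' protocols, RNA was enriched on oligo(dT) beads, made into strand-specific libraries with a dUTP kit, and sequenced from both ends on an Illumina HiSeq. The tools were HISAT2, StringTie and cutadapt with build mm10, per the submitters' processing notes, with no version, setting or annotation named. In the deposited table each transcript has 1 value in each library, taken as the FPKM that the authors obtained from StringTie; the table names no unit, and TPM would differ by 1 factor per library, so rescaling each library to the same sum was an alternative. Each of the 22157 transcripts has a mean of at least 0.5 FPKM in 1 group or both, so the table appears filtered on the group means. The depth is unknown, and the spread between libraries is the only error given.

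Transcripts were looked up in GENCODE vM21 (GRCm38/mm10): 22097 were found, 21001 with the same version, and 60 were not. Listed transcripts were summed per symbol, and values were used as log2(FPKM + 1), which understates differences of low genes. Genes and transcripts with a mean of at least 1 FPKM in either group were tested, 5 against 5 libraries. The test was that of limma 3.58.1 in R 4.3.3 (empirical Bayes with trend, no covariate, Benjamini-Hochberg at 0.05). Its p-values set the difference of the groups against the spread between these libraries, which empirical Bayes moderates over all tested genes or transcripts. The fit was tested on simulated data. Printed sequences come from the GENCODE vM21 transcripts. The members and the 5 splicing lists were chosen with earlier results of these data known. Named were the members and their transcripts, members of each list that were called or otherwise the 2 with the smallest p, the 3 genes most correlated with each member, Npr1, and genes that overlap a member or start within 5 kb of it; predicted genes were passed over, and 1 gene picked by correlation is not reported here. Hcn3, BC049762, Gm25082 and Donson, which the last part of the rule picks, had no listed transcript. Alternatives were pseudocounts of 0.1 and 0.5, no filter and a floor of 5 FPKM, other scalings, other forms of the test, the most abundant transcript per gene, FPKM times transcript length (chosen after seeing the data), and leaving out each library. Circular RNA was not analysed here. Python 3.11.15, numpy 2.4.6, pandas 2.3.3 and matplotlib 3.10.9 were used for other calculations and figures.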

Additional observations from a re-analysis of the deposited data

Results flagged for a closer look

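Of 120 sets of 5 values (levels and shares of 1 group), 14 held a library whose gap to the next one, divided by the range of the set, passed Dixon's 95% critical value. Chance alone flags about 1 in 20 sets, here 6, and the sets are not independent, since shares and sums are made of the same transcripts. No explanation was tested for any of them.

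In the NPRA-/- group, 5 of the 14 belonged to Son in library 227. Its sum was 39.7 FPKM, while the other 4 libraries lay between 16.8 and 19.3 FPKM. Son-204 was at 12.3 FPKM beside 1.61 to 2.36 FPKM, and at 30.9% of Son beside 9.62 to 12.7%. Son-202 was at 5.50 FPKM beside 0.906 to 1.25 FPKM, and at 13.8% of Son beside 5.30 to 6.80%. In the same group, Son-205 was at 0.00884 FPKM in library 241 beside 1.08 to 1.31 FPKM, and Ppp1r10, a phosphatase-targeting subunit named for its likeness to Clk4, was at 10.8 FPKM in library 240 beside 5.48 to 6.98 FPKM.

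In the NPRA+/+ group, Son-203 in library 230 was at 14.0 FPKM beside 3.68 to 5.18 FPKM, and at 34.3% of Son beside 11.3 to 13.1%. In library 243, Clk2-202 was at 0.00556 FPKM beside 1.18 to 1.26 FPKM, which put it at 0.101% of Clk2 beside 14.3 to 17.7% and Clk2-203 at 78.6% beside 49.5 to 54.9%. Library 242 had Srsf4 at 25.9 FPKM beside 3.64 to 4.79 FPKM and Rbm20 at 16.6 FPKM beside 32.3 to 38.3 FPKM.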

How the results depend on the processing

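The limma test called 1 gene over all genes. It called 0 with median-of-ratios scaling, with quantile normalization, without the trend and with FPKM times transcript length, and 2 with the most abundant transcript per gene; leaving out 1 library gave 0 to 2. It called 5 transcripts, 3 with a floor of 5 FPKM, and 2 to 10 when 1 library was left out. Of the SR proteins 0 were called, and 0 to 1 when 1 library was left out, the 1 being Srsf4 without library 242. The log2 differences of the member genes and transcripts moved by less than the SD between libraries in 365 of 366 recalculations. The exception was Son-205, at -0.98 with a pseudocount of 0.1. Most of these recalculations could not have moved a difference that far. Leaving out 1 of 5 libraries always shifts it by less than that SD, and the filters and a fit without the trend leave it unchanged. The count is therefore no measure of stability. The share differences (169 of 169) and the list medians (90 of 90) also moved by less than the SD between libraries. For the shares, only quantile normalization could have given another outcome. Rescaling to the same sum and median-of-ratios scaling leave a share as it is, and leaving out a library cannot shift it by that SD. Calls of members under an alternative, each without library 227, were those of Son, Son-202 and Son-204. Those fits leave out the 1 library of its group at the values of the other, so they do not test the genotype. No paired analysis was possible because the mouse numbers are not shared between the groups. Son-205 and Clk2-202 are near 0 in some libraries, and Clk2-202 is under the floor, so their differences rest on low values. Unlisted transcripts, among them those annotated as retained introns, do not enter the sums.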
